A study of Mus musculus with 11 samples.

Results

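The type I interferon response was followed through 37 mouse genes named for the pathway: the antiviral IFIT and OAS families, the ISG15 conjugation system, RNA and DNA sensors, the transcription factors of the response and other induced genes. The members were listed by gene symbol, and no measured value entered the rule. Of the 37, 35 had values among the 17181 gene symbols of the deposited table, and all 35 passed the filter on low values, as did 13074 genes in all. Mx1 and Mx2, which encode antiviral GTPases, were not analysed here. The list is therefore 35 genes in 11 tumour libraries, and a level is given throughout as FPKM, which counts fragments relative to transcript length and library size.

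The tumours were grown from the mouse mammary carcinoma line 4T1, which models triple-negative disease, by injection under the skin of both flanks of NSG mice, hosts that lack T, B and NK cells. Treatment began at a tumour volume of about 100 mm3 and lasted 12 days in every group. Vehicle (lactate, corn oil and DMSO) was given to 2 of the tumours, OPG-Fc (10 mg/kg, 3 doses a week) to 3, palbociclib at 30 mg/kg per day to 3, and both drugs at these doses to 3. OPG-Fc is a soluble decoy receptor that binds RANKL, and palbociclib inhibits the cell cycle kinases CDK4 and CDK6; poly(A) RNA of each tumour was sequenced. The labels give 1 genotype, WT, for all groups, do not say which tumours shared an animal, and do not give the age of the mice, so p-values measure the spread between these tumours only. Within the column names a first number, whose meaning is not stated, is common to combination replicates 1 and 2 and to OPG-Fc replicates 2 and 3.

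Type I interferons are cytokines made when cells detect viral or misplaced nucleic acid. They bind the receptor pair IFNAR1 and IFNAR2, whose kinases JAK1 and TYK2 phosphorylate STAT2, among others. With IRF9 it forms part of ISGF3, a transcription factor that binds the interferon-stimulated response element in promoters of many genes, and IRF7 made in this first wave amplifies interferon production. In tumours both cancer cells and infiltrating myeloid cells can express the response, and a basal level is often present without infection.

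The libraries were not alike in tissue content. Library totals of FPKM ran from 576699 to 864670, and no counts were given that would show the depth. Vehicle replicate 2 went against its epithelial label: the median FPKM of 10 epithelial markers (Epcam, keratins, claudins and others) was 2.95 there and 136 to 320 in the other 10 libraries, while the median of 7 B and plasma cell markers was 366 there, 41.9 in OPG-Fc replicate 2 and at most 1.92 elsewhere. In vehicle replicate 2 genes typical of T and NK cells reached a median FPKM of 63.2, and those of lymph node stroma 54.3. OPG-Fc replicate 2 followed at 10.8 and 8.95, and the rest were at most at 3.63 and 2.61. NSG hosts lack T, B and NK cells, so these lymphoid transcripts run against the host as described. Vehicle replicate 2 is called a vehicle tumour below after its label only. Markers of skin keratinocytes were at a median of 142 in palbociclib replicate 1 and 109 in palbociclib replicate 3. They were at most at 10.3 in the other 9 libraries. What brought lymphoid and skin transcripts into these libraries was not tested. Counts of called members are therefore given with 11 libraries and with vehicle replicate 2 left out, which leaves 1 vehicle library whose spread is taken from the other groups.

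Every member was expressed, with mean FPKM over the 11 libraries from 2.78 for Rsad2 (viperin, a radical SAM enzyme that blocks viral replication) to 366 for Bst2 (tetherin, which holds budding virions at the cell surface). The median of log2(FPKM + 1) over the members was 5.13 in vehicle replicate 1 and 4.01 in vehicle replicate 2. It was 4.42, 4.72 and 4.59 in the OPG-Fc tumours, 5.07, 4.85 and 4.89 in the palbociclib tumours, and 4.70, 4.73 and 4.49 in the combination tumours. Thus the 3 palbociclib medians lay above all 6 medians of the groups given OPG-Fc, and the vehicle tumours lay at both ends. Vehicle replicate 2 was the lowest of the 11 libraries in 18 members, and it lay below vehicle replicate 1 in 31 of 35, against 44.3% of all genes tested. Among the other 10 libraries, OPG-Fc replicate 1 was lowest in 20 members and combination replicate 3 in 11, and palbociclib replicate 1 was highest in 13 and vehicle replicate 1 in 10.

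**Figure D1:**
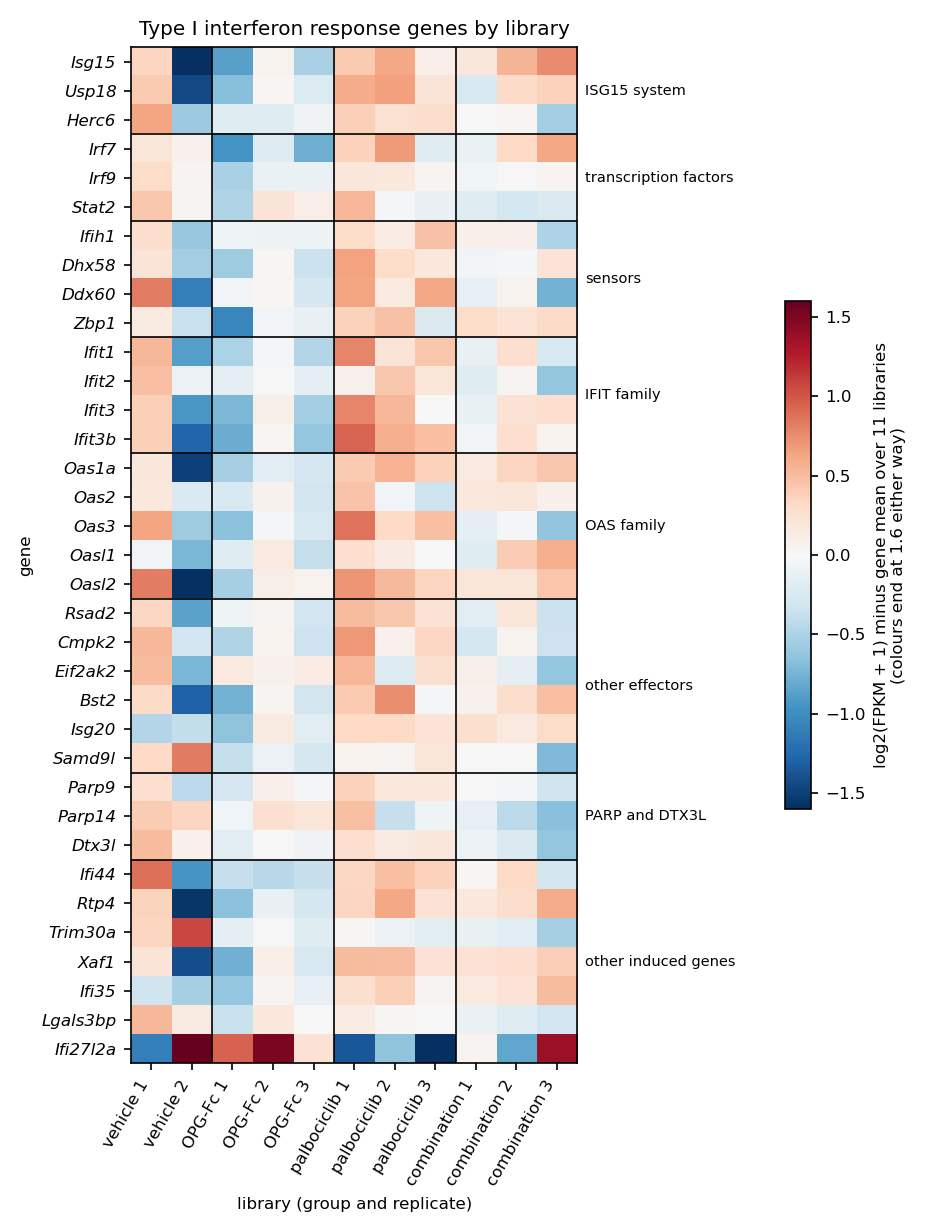
Level of the 35 members (rows, grouped by role) in the 11 libraries (columns), as log2(FPKM + 1) minus the gene's mean over the libraries; red is above and blue below that mean. Vehicle replicate 2 is the lowest library in 18 rows, most palbociclib cells are red, and Ifi27l2a in the last row runs against most other genes.

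Palbociclib and OPG-Fc tumours, 3 of each, were separated in most members. In 24 members every palbociclib tumour lay above every OPG-Fc tumour, where 11.3% of all genes tested did so, and in 1 member, Ifi27l2a, every palbociclib tumour lay below, where 21.8% did so. The log2 fold change of FPKM + 1 was above 0 in 33 of the 35 (43.9% of all genes), with a median of 0.51 over the members and -0.04 over all genes tested. Apart from Ifi27l2a, the lowest fold changes were those of Parp14, Trim30a, Eif2ak2, Lgals3bp, Oas2 and Stat2, from -0.12 to 0.19.

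No member passed an adjusted p under 0.05 in the limma fit of all 11 libraries, where 0.91% of genes did (0.00765% higher and 0.903% lower). At an unadjusted p under 0.05, 10 members were higher (2.93% of all genes) and 1 was lower (9.37%). Without vehicle replicate 2 the same differences stand, since vehicle is not part of this contrast, and only the shared estimate of the spread is smaller. In that fit 9 members were higher at an adjusted p under 0.05 (1.15% of all genes) and Ifi27l2a was lower (9.13%); 23 members were higher at an unadjusted p under 0.05 (7.43%). Leaving out vehicle replicate 1 in its place gave 10 called members (10.4% of all genes), which is no second test. A lone vehicle library adds nothing to the spread, so both fits estimate it from the same treated tumours. The number of members passing without vehicle replicate 2 was 3 when OPG-Fc replicate 1 (6.33% of all genes passed) or palbociclib replicate 1 (6.73%) was also left out, and 4 without OPG-Fc replicate 3 (8.08%). It was 6 or 7 without palbociclib replicate 2, palbociclib replicate 3, combination replicate 1 or combination replicate 2 (5.87% to 9.67%), and 10 to 15 without vehicle replicate 1, OPG-Fc replicate 2 or combination replicate 3 (7.46% to 13.2%). For this comparison and the 2 that follow, fold changes, their standard errors and adjusted p-values of single genes are from the fit without vehicle replicate 2 unless 11 libraries are named. The adjusted p with 11 libraries stands beside each member called here; none of the members passed in that fit.

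**Figure D2:**
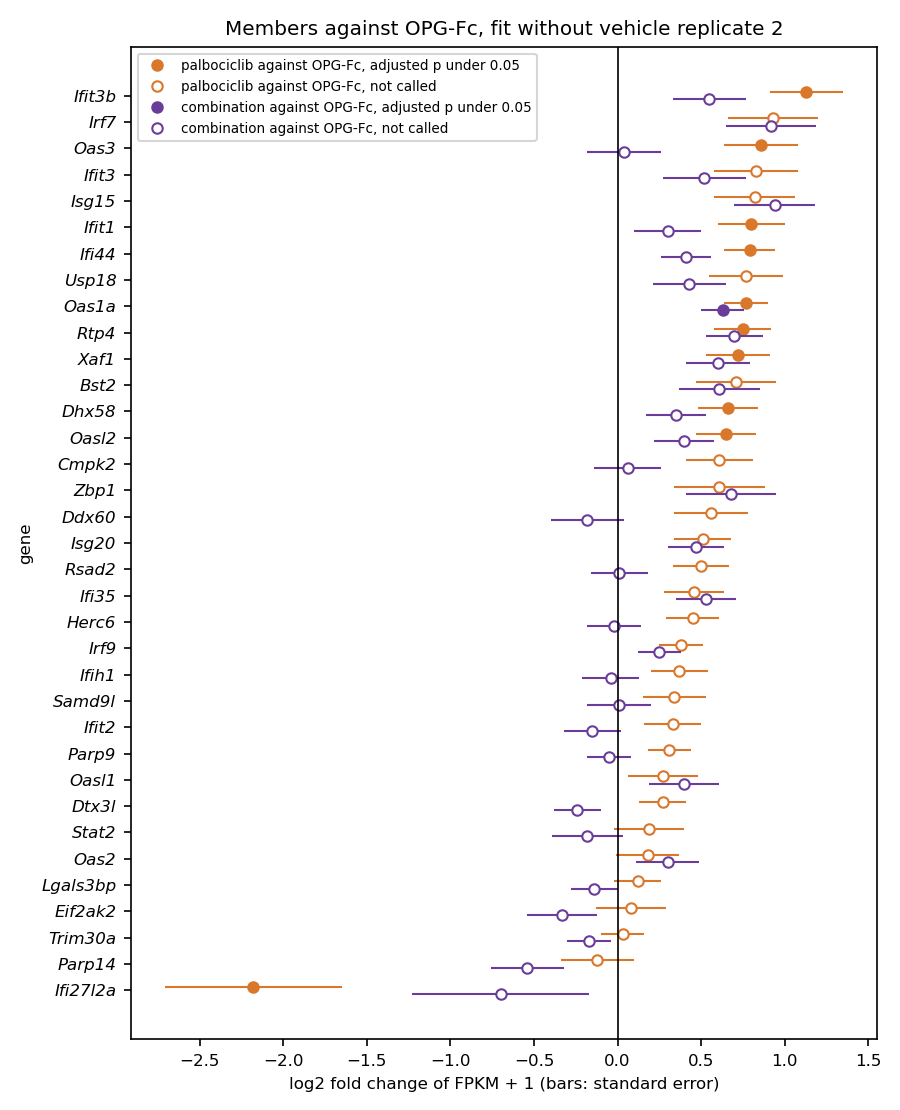
Log2 fold change of FPKM + 1 of each member (rows) for palbociclib against OPG-Fc (orange) and the combination against OPG-Fc (purple), with standard errors, from the fit without vehicle replicate 2; filled points have an adjusted p under 0.05. For palbociclib 33 of 35 points lie above 0 and 10 are filled; for the combination 23 lie above 0 and Oas1a is filled.

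Among the IFIT proteins, which bind viral RNA and block its translation, all 4 members had fold changes above 0 (median 0.81) and 2 were called. Ifit3b had an FPKM of 2.95, 5.95 and 3.43 in the OPG-Fc tumours, 12.0, 9.21 and 8.52 with palbociclib, 5.65, 7.19 and 6.07 with the combination, and 7.89 and 1.84 with vehicle. The palbociclib tumours were all above the 8 others, a log2 fold change of 1.13 ± 0.22 against OPG-Fc (adjusted p = 0.00951, and 0.231 with 11 libraries). Ifit1, the family's cap-binding member, was at 4.93, 7.34 and 5.10 with OPG-Fc and 13.4, 8.69 and 10.4 with palbociclib (0.80 ± 0.20, adjusted p = 0.034, and 0.362 with 11 libraries). Those groups did not overlap, and of the combination tumours, at 6.77, 9.16 and 6.08, 1 lay within the palbociclib range and the others within that of OPG-Fc. Ifit3, which stabilises the IFIT1 complex in human cells, had a similar difference of 0.83 ± 0.25 that was not called (adjusted p = 0.0636), with OPG-Fc replicate 2 at 14.2 above palbociclib replicate 3 at 13.4. Ifit2 was at 0.33 ± 0.17 (adjusted p = 0.281).

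The OAS enzymes detect double-stranded RNA and make 2-5A, the activator of RNase L; of the mouse OASL proteins, OASL2 keeps that activity and OASL1 does not. All 5 members were above 0 (median 0.65) and 3 were called. Oas1a had an FPKM of 31.2, 40.3 and 37.5 in the OPG-Fc tumours, 61.0, 66.9 and 58.9 with palbociclib, 50.6, 57.9 and 61.4 with the combination, and 51.7 and 15.4 with vehicle. Both palbociclib-treated groups lay above all OPG-Fc tumours, and the difference for palbociclib was 0.77 ± 0.13 (adjusted p = 0.00462, and 0.406 with 11 libraries). Oas3, the largest of the enzymes, was at 4.09, 6.93 and 5.73 with OPG-Fc and 13.6, 8.98 and 10.2 with palbociclib (0.86 ± 0.22, adjusted p = 0.0357, and 0.28 with 11 libraries). Unlike Oas1a, it was at 6.17, 6.95 and 4.20 with the combination, within the OPG-Fc range but for 1 tumour on the upper edge. Oasl2 was at 34.2, 53.6 and 51.9 with OPG-Fc and 82.1, 72.0 and 63.8 with palbociclib (0.65 ± 0.18, adjusted p = 0.0467, and 0.849 with 11 libraries). Oasl1 and Oas2 were at 0.27 ± 0.21 and 0.18 ± 0.19 and their groups overlapped.

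**Figure D3:**
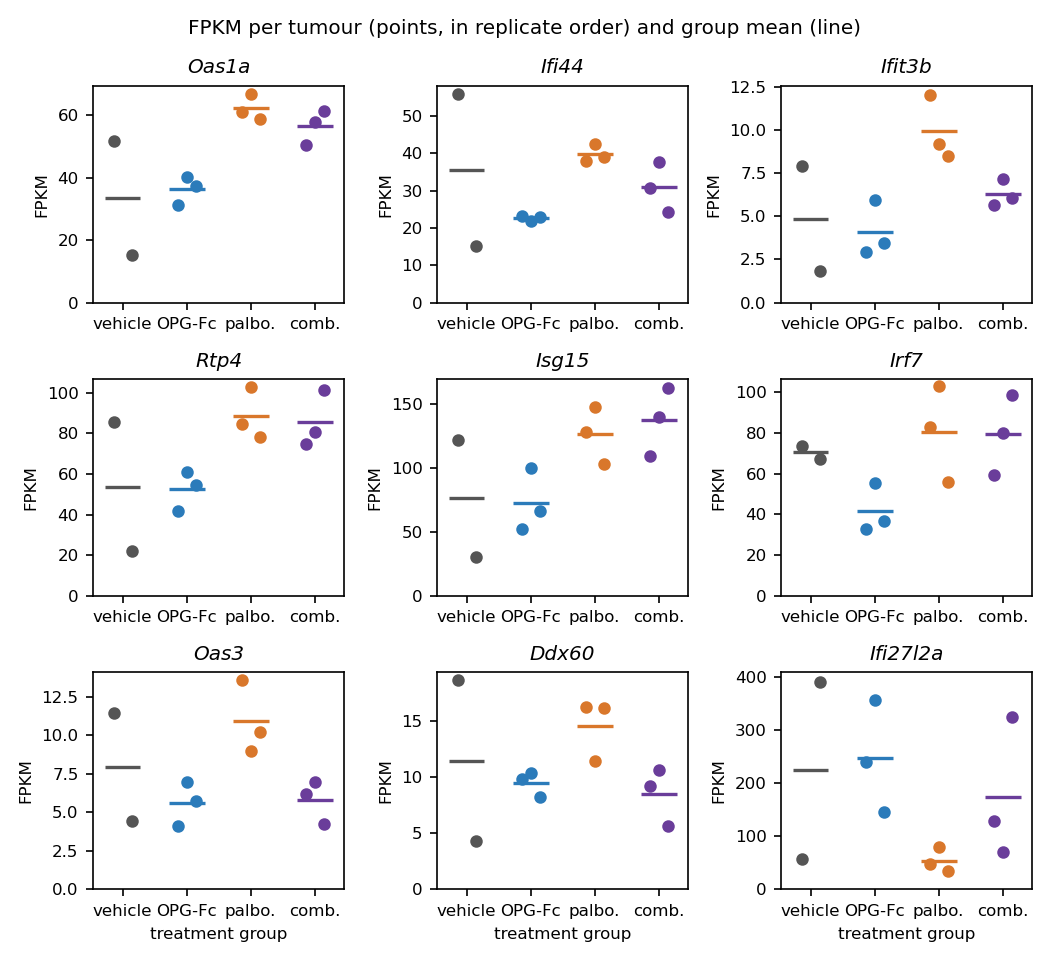
FPKM per tumour (points, in replicate order) with the group mean (line) for 9 members. Palbociclib points lie above the OPG-Fc points in all panels except Ifi27l2a, where they lie below; the combination points match the palbociclib level in Oas1a and Isg15 and the OPG-Fc level in Oas3 and Ddx60.

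Promoters of these families are shown because several of these members carry a common letter pattern there. RefSeq promoters (build GRCm38.p6, 250 bases before to 50 after a gene's start, not the build of the expression values) matched 27 of the 37 members. The core of the interferon-stimulated response element, searched as GAAANNGAAA on both strands, occurred in 13 of the 27 (48.1%) against 3.99% of 27025 genes. The longer form GAAANNGAAACT, which contains it, occurred in 7 (25.9%) against 0.303%. The palindrome TTCNNNGAA bound by STAT dimers occurred in 6 (22.2%) against 9.55%. The 6 windows of 70 bases below lie upstream of the start and are written 5′ to 3′ on the gene's strand, with the pattern GAAANNGAAA, or its reverse complement TTTCNNTTTC, and its overlapping copies in capitals.
Isg15, chr4:156200851-156200920, minus strand: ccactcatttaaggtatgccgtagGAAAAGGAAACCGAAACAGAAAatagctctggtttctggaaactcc
Ifit1, chr19:34640764-34640833, plus strand: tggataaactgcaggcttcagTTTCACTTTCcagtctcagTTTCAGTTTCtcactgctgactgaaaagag
Ifit3, chr19:34583360-34583429, plus strand: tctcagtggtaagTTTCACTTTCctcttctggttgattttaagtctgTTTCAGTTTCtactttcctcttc
Ifit3b, chr19:34607756-34607825, plus strand: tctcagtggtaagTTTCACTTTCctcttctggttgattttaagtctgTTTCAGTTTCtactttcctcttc
Oas1a, chr5:120907526-120907595, minus strand: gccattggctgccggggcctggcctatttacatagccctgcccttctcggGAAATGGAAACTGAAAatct
Oas3, chr5:120777695-120777764, minus strand: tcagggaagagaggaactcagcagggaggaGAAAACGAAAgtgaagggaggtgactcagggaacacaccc

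Isg15 held 3 overlapping copies, Ifit1, Ifit3, Ifit3b and Oas1a 2 each, and Oas3 1. The printed genes were taken from the 13 members with the pattern, so its presence in all of them is no result. The other members among the 27 searched, Ifit2 included, did not carry it. The windows of Ifit3 and Ifit3b were identical in 70 of 70 bases; these neighbouring paralogues are near copies, reads can be split between them, and their separate FPKM values are uncertain. A match is a run of letters, and binding at these windows was not measured.

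In the ISG15 system, Isg15, the ubiquitin-like protein that is both secreted and conjugated to targets, was at 52.1, 100 and 66.5 with OPG-Fc, 128, 148 and 103 with palbociclib, 109, 140 and 163 with the combination, and 122 and 30.6 with vehicle. All 6 tumours given palbociclib, alone or combined, lay above the 3 given OPG-Fc alone, with little room between 100 and 103. The difference for palbociclib was 0.82 ± 0.24 (adjusted p = 0.0623, and 0.545 with 11 libraries). Usp18, the protease that removes ISG15 and also restrains the receptor IFNAR2, was at 0.77 ± 0.22 (adjusted p = 0.0578) and Herc6, the mouse ligase for ISG15, at 0.45 ± 0.16 (adjusted p = 0.109). None of the 3 was called, and all 3 were without overlap between those groups.

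Of the sensors, Dhx58 (LGP2, a helicase that tunes RNA sensing) had 12.0, 18.8 and 14.2 with OPG-Fc and 29.2, 22.7 and 20.7 with palbociclib, a difference of 0.66 ± 0.18 (adjusted p = 0.0446, and 0.251 with 11 libraries). Ddx60, a helicase that assists RIG-I-like sensing, was at 9.88, 10.4 and 8.26 with OPG-Fc, 16.3, 11.4 and 16.2 with palbociclib and 9.23, 10.6 and 5.61 with the combination, and was not called (0.56 ± 0.22, adjusted p = 0.148). Ifih1 (MDA5, the sensor of long double-stranded RNA) was nearly constant with OPG-Fc, at 9.18, 9.17 and 9.17, and at 12.2, 10.7 and 13.9 with palbociclib (0.37 ± 0.17, adjusted p = 0.215). Palbociclib tumours were thus above OPG-Fc tumours for all 3 helicases. Zbp1, the sensor of Z-form nucleic acid that can trigger necroptosis, overlapped between these groups (0.61 ± 0.27, adjusted p = 0.198).

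The transcription factors of the response were not called. Irf7 was at 32.6, 55.2 and 36.6 with OPG-Fc, 82.9, 103 and 55.8 with palbociclib, 59.3, 80.0 and 98.4 with the combination, and 73.6 and 67.1 with vehicle. The 3 OPG-Fc tumours were the lowest of the 11, although only narrowly for replicate 2, and the difference was 0.93 ± 0.27 (adjusted p = 0.0586, and 0.166 with 11 libraries). Irf9, the DNA-binding part of ISGF3, was at 0.38 ± 0.13 (adjusted p = 0.102) and Stat2 at 0.19 ± 0.21 (adjusted p = 0.653).

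The remaining effectors were above 0 without a call. Bst2 was at 202, 354 and 280 with OPG-Fc and 459, 576 and 336 with palbociclib, with 1 tumour of each group crossing (0.71 ± 0.24, adjusted p = 0.101). Isg20, a 3′ to 5′ RNA exonuclease, was at 30.9, 54.2 and 42.9 with OPG-Fc, 61.2, 61.2 and 56.9 with palbociclib and 58.8, 54.4 and 60.4 with the combination (0.51 ± 0.17 for palbociclib, adjusted p = 0.101). Vehicle tumours had 35.0 and 36.9, below all 6 tumours given palbociclib, and 1 of the OPG-Fc tumours lay below both. Cmpk2, a mitochondrial nucleotide kinase, and its genomic neighbour Rsad2 were at 0.61 ± 0.20 and 0.50 ± 0.17 (adjusted p = 0.0927 and 0.108). Samd9l, an antiproliferative antiviral factor, was at 0.34 ± 0.19, and Eif2ak2 (PKR, the kinase that halts translation on double-stranded RNA) at 0.08 ± 0.21. The latter was at 30.5, 17.7 and 25.1 with palbociclib, on either side of the OPG-Fc tumours at 23.2, 21.8 and 22.6.

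PARP9 and DTX3L form a complex that ubiquitinates histones and viral proteins, and PARP14 is a mono-ADP-ribosyltransferase. Parp9 and Dtx3l were at 0.31 ± 0.13 and 0.27 ± 0.14 (adjusted p = 0.199 and 0.267), with palbociclib above OPG-Fc in every tumour. Parp14 was at -0.12 ± 0.22, and its palbociclib values of 32.6, 17.6 and 21.8 spread more widely than those with OPG-Fc, at 22.2, 27.9 and 26.4.

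Of the other 7 induced genes, 3 were called higher. Ifi44, a cytoplasmic protein of uncertain function, had 23.2, 21.9 and 23.0 with OPG-Fc, 38.0, 42.4 and 39.1 with palbociclib, 30.8, 37.8 and 24.4 with the combination, and 56.0 and 15.1 with vehicle. OPG-Fc tumours were tightly grouped and lay below all 6 tumours given palbociclib (0.79 ± 0.15 for palbociclib alone, adjusted p = 0.00828, and 0.462 with 11 libraries). Rtp4, a chaperone of G protein-coupled receptors, was at 41.7, 60.9 and 54.5 with OPG-Fc and 84.8, 103 and 78.4 with palbociclib (0.75 ± 0.17, adjusted p = 0.0219, and 0.534 with 11 libraries). Xaf1, a proapoptotic antagonist of XIAP, was at 17.4, 32.6 and 25.3 against 43.7, 43.3 and 35.9 (0.72 ± 0.19, adjusted p = 0.0442, and 0.501 with 11 libraries). Ifi35 was at 0.46 ± 0.18, Lgals3bp (a secreted galectin-3 ligand) at 0.12 ± 0.14 and Trim30a at 0.03 ± 0.13, without a call.

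Ifi27l2a, a small hydrophobic membrane protein of the ISG12 family, ran the other way. It was at 241, 357 and 147 with OPG-Fc, 47.8, 79.1 and 34.5 with palbociclib, 129, 69.4 and 325 with the combination, and 57.6 and 392 with vehicle. Palbociclib tumours lay below all OPG-Fc tumours, a log2 fold change of -2.18 ± 0.53 (adjusted p = 0.0298, and 0.238 with 11 libraries), and vehicle replicate 1 lay among them. The highest tumour of all was vehicle replicate 2, the library nearly without epithelial transcripts, which was the lowest for 18 other members. Samd9l and Trim30a were highest in that library as well. With the shortest transcript length of the list (463 bases), Ifi27l2a was also the member that differed most between combination replicate 3 and the other combination tumours.

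The combination was set against the same OPG-Fc tumours, so both comparisons share them. The member median was 0.30 (-0.07 over all genes), 23 of 35 were above 0 (42.5% of all genes), 13 lay wholly above the OPG-Fc tumours (15.3%) and 1, Parp14, wholly below (23.5%). With all 11 libraries no member was called (0.0994% of genes were), with 4 higher at an unadjusted p under 0.05 (6.68%) and 1 lower (8.77%). Without vehicle replicate 2, Oas1a was called (0.63 ± 0.13, adjusted p = 0.0314; 0.987% of genes were called higher), and 12 were higher at an unadjusted p under 0.05 (12.2%). Irf7 (0.92 ± 0.27, adjusted p = 0.0705), Isg15 (0.94 ± 0.24, adjusted p = 0.055) and Rtp4 (0.70 ± 0.17, adjusted p = 0.0507) came next among the members with large differences. Zbp1 was at 115, 109 and 116 with the combination and at 44.6, 90.3 and 85.8 with OPG-Fc (0.68 ± 0.27, adjusted p = 0.123).

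Set directly against palbociclib alone, the combination had fold changes below 0 in most members. The median was -0.32 (0.02 over all genes), 6 of 35 were above 0 (52.7% of all genes), 14 lay wholly below the palbociclib tumours (7.04%) and 0 wholly above (13.7%). No member was called in either limma fit, in which no gene was called (0%); at an unadjusted p under 0.05, 3 were lower with 11 libraries (2.53%) and 12 without vehicle replicate 2 (7.22%). The 3 were Oas3, Ifit2 and Dtx3l. Oas3 was at -0.82 ± 0.22 (adjusted p = 0.127, and 0.73 with 11 libraries). Ifit2 was at 7.58, 9.08 and 5.40 with the combination and 9.28, 12.2 and 10.3 with palbociclib (-0.49 ± 0.17, adjusted p = 0.221), separated by a narrow gap. Dtx3l was at 21.1, 19.1 and 14.4 against 27.4, 25.1 and 25.9 (-0.51 ± 0.14, adjusted p = 0.127).

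Which members were low in combination replicate 3 followed transcript length. Lengths from an annotation of the older build GRCm38 were matched by symbol for 98.3% of genes tested and for all 35 members, whose median was 2401 bases, from 463 for Ifi27l2a to 7417 for Parp14. A gene's length was the median over its annotated protein-coding transcripts, short isoforms included, so it can fall below that of the main transcript. Of the 18 shorter members 15 were higher in combination replicate 3 than the mean of replicates 1 and 2 (median 0.23 on the log2 scale), and of the 17 longer ones 2 were (median -0.40). Over all genes tested the medians were 0.10 and -0.25, split at the same length. Group differences were split as well: for palbociclib against OPG-Fc the medians were 0.68 in the shorter and 0.37 in the longer members. When the combination was compared with OPG-Fc they were 0.53 and -0.02, and with palbociclib -0.11 and -0.41. All genes tested were split too, at 0.01 and -0.10, 0.09 and -0.24, and 0.11 and -0.10 for these comparisons in turn. With the length trend of each library subtracted, the 3 medians over all members were 0.55, 0.26 and -0.26.

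**Figure D4:**
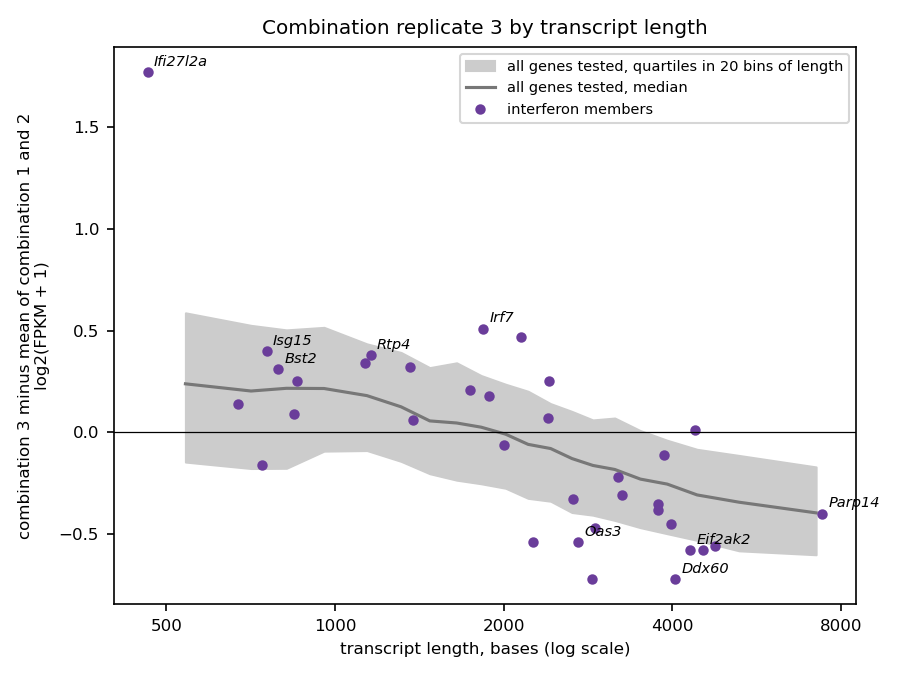
Log2(FPKM + 1) in combination replicate 3 minus the mean of combination replicates 1 and 2 against transcript length (log axis), for the members (points) and all genes tested (median line and quartile band in bins of length). The 18 shorter members lie mostly above 0 and the 17 longer ones mostly below, along the trend of all genes, with Ifi27l2a far above it.

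Averaged over both levels of palbociclib, OPG-Fc gave a member median of -0.21 with 11 libraries and -0.41 without vehicle replicate 2 (0.03 over all genes in both). No member was called with 11 libraries, where no gene was (0%), and 8 were lower at an unadjusted p under 0.05 (2.93%). Without vehicle replicate 2, 5 members were called lower (0.291% of genes), namely Ifi44 (-0.82 ± 0.13, adjusted p = 0.015), Oas3 (-0.88 ± 0.19, adjusted p = 0.0403), Herc6 (-0.62 ± 0.14, adjusted p = 0.0405), Dtx3l (-0.55 ± 0.12, adjusted p = 0.041) and Ddx60 (-0.82 ± 0.19, adjusted p = 0.0478). Their adjusted p with 11 libraries was 0.337 to 0.642. In this fit 23 members were lower at an unadjusted p under 0.05 (5.24%), and Ifi27l2a alone was higher (15.2%). When vehicle replicate 1 was left out instead, the median was 0.06 and Ifi44 and Ddx60 were at 0.09 and 0.13, so the direction rests on which vehicle tumour is the control; 7 members were then called, 5 of them higher (30.7% of genes). Averaged over both levels of OPG-Fc, palbociclib gave medians of 0.33 and 0.05 with no member called (2.83% and 3.91% of genes were), and 14 and 7 members higher at an unadjusted p under 0.05 (14.2% and 13.1%). Without vehicle replicate 1 its median was 0.58 and 24 members were called, 22 of them higher (53% of genes were called). The interaction of the drugs had medians of -0.19 and 0.26, with no member called and no gene called (0%); 0 members with 11 libraries (2.3% of genes), and 2 without vehicle replicate 2 (Ifi44 and Oasl2, against 1.62% of genes), were higher at an unadjusted p under 0.05. Without vehicle replicate 1 the median was -0.71 and 15 members were called, 14 of them lower (36.7% of genes were called).

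Comparisons with vehicle likewise changed with the vehicle tumour used, and none called a member in either fit (0.00765% of genes for OPG-Fc, 0.0612% for the combination and 0% for palbociclib without vehicle replicate 2). For palbociclib the member median was 0.46 with both vehicle tumours, -0.06 against vehicle replicate 1 and 0.89 against vehicle replicate 2. For OPG-Fc the medians were -0.11, -0.57 and 0.35 in the same order, and for the combination 0.14, -0.38 and 0.60. Against vehicle replicate 2 alone, 25 of the 35 members were called for palbociclib, 12 for OPG-Fc and 16 for the combination, where 52%, 40.3% and 50.8% of all genes were. The last 2 counts are thus smaller shares (34.3% and 45.7%) than those of all genes. At an unadjusted p under 0.05 in the fit of 11 libraries, 5 members were higher with palbociclib (13.6% of genes, and 0% passed the adjusted threshold), 5 were lower with OPG-Fc (2.56%, and 0%), and 5 were higher and 5 lower with the combination (15.3% and 14.3%, and 0%). Against vehicle replicate 1 alone, 17 members were lower with OPG-Fc at an unadjusted p under 0.05 (2.12%). Vehicle replicate 1 lay above every OPG-Fc tumour in 31 members (25.6% of all genes), above every combination tumour in 22 (33%) and above every palbociclib tumour in 10 (33%).

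Isg20 and Trim30a were among the members that held their direction against either vehicle tumour. Samd9l likewise had both vehicle tumours, at 34.0 and 48.6, above the 9 treated ones. Ifi35 had both vehicle tumours, at 40.0 and 34.4, below every tumour given palbociclib, alone or combined. With 11 libraries Isg20 was at 0.72 ± 0.20 with palbociclib and 0.67 ± 0.20 with the combination (adjusted p = 0.158 and 0.0871). Trim30a, a TRIM protein that restrains NF-kappaB signalling in mice, was at 23.8 and 40.3 with vehicle, 16.7, 18.7 and 16.1 with OPG-Fc, 18.8, 17.4 and 16.5 with palbociclib, and 17.1, 16.2 and 12.6 with the combination. Both vehicle tumours were above the 9 treated ones, with differences in the fit of 11 libraries of -0.82 ± 0.22, -0.79 ± 0.22 and -0.99 ± 0.22 that were not called (adjusted p = 0.471, 0.158 and 0.0639). Their size rests on the vehicle tumour: against vehicle replicate 1 alone they were -0.45, -0.42 and -0.62 (no call), and against vehicle replicate 2 alone -1.19, -1.16 and -1.35 (adjusted p = 0.000772, 0.00064 and 0.000275).

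Upstream of the members, interferon genes themselves were barely detected. Ifnb1, the single interferon-beta gene, was listed at 0 in both vehicle and all 3 OPG-Fc tumours, at 0.07, 0.15 and 0.07 with palbociclib, and at 0, 0.09 and 0 with the combination. These values lie far below the filter, and no read count stands behind them here. Of 21 interferon genes looked for, 5 had values and Ifng alone was tested; it ranged from 0.59 to 2.53 and had no call. The receptor chains Ifnar1 and Ifnar2 ranged from 12.6 to 18.0 and from 41.5 to 68.1 over the 11 tumours.

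Palbociclib against OPG-Fc, without vehicle replicate 2, called 2 of 11 receptor and JAK-STAT genes, both lower: the interferon-gamma receptor chain Ifngr1 (-0.41 ± 0.10, adjusted p = 0.0318) and the chain Il10rb, shared by the receptors for interleukin-10 and interferon-lambda (-0.44 ± 0.11, adjusted p = 0.0308). With 11 libraries 0 of the 11 were called. Of all genes tested, 9.13% were called lower and 1.15% higher without vehicle replicate 2, and 0.903% and 0.00765% with 11 libraries. Of 18 nucleic acid sensors and adaptors outside the members 5 were lower and 0 higher, with a median of -0.24. They were the endosomal receptors Tlr7 (-1.04 ± 0.20, adjusted p = 0.00869), Tlr8 (-1.43 ± 0.18, adjusted p = 0.00157) and Tlr9 (-0.81 ± 0.21, adjusted p = 0.0378), their chaperone Unc93b1 (-1.58 ± 0.22, adjusted p = 0.00256) and their adaptor Myd88 (-0.35 ± 0.10, adjusted p = 0.047). With 11 libraries Tlr8 was the 1 call of the 18 (adjusted p = 0.0212). Tlr3, the endosomal receptor for double-stranded RNA, was at 17.9, 18.9 and 20.2 with OPG-Fc and 22.3, 20.6 and 25.5 with palbociclib, without overlap and without a call (0.25 ± 0.12, adjusted p = 0.261). The endosomal receptors thus differed in direction, with Tlr7, Tlr8 and Tlr9 called lower with palbociclib and every Tlr3 value higher. None of 16 genes that limit the response, among them the members Isg15 and Usp18, was called in this comparison.

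Other interferon-stimulated genes were mixed. Of 55 tested, 4 were called higher (1.15% of all genes), namely Oas1g, Ifitm3, Mitd1 and Dhx58 (the last a member). Called lower were 3 (9.13% of all genes), namely Slfn5, Slfn1 and Ifi30. The median was 0.10, and with 11 libraries 0 of the 55 were called (0.91% of all genes). Ifitm3, which blocks virus entry from endosomes, was at 824, 902 and 1006 with OPG-Fc and 1446, 1611 and 1244 with palbociclib (0.65 ± 0.17, adjusted p = 0.0387). Slfn5 ran the other way at 13.8, 10.7 and 9.64 against 4.40, 3.33 and 3.84 (-1.34 ± 0.16, adjusted p = 0.00123), as did Ifi30, a lysosomal thiol reductase of antigen-presenting cells (-1.01 ± 0.20, adjusted p = 0.0117). Among 19 genes induced more by interferon-gamma or by both types, 17 were above 0 (43.9% of all genes) with a median of 0.29, and none was called. Cxcl10 and Cxcl9, chemokines for T cells, were at 0.46 ± 0.16 and 0.77 ± 0.30 (adjusted p = 0.106 and 0.15). In this comparison the direction of the listed members was thus shared by interferon-gamma genes, without a call.

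Cell type markers moved with the palbociclib and OPG-Fc groups. For comparison, 9.13% of all genes were called lower with palbociclib and 1.15% higher without vehicle replicate 2. The shares with 11 libraries were 0.903% and 0.00765%. With OPG-Fc the median FPKM of 9 macrophage markers was 81.5 to 88.3, against 26.8 to 28.7 after palbociclib and 36.2 to 51.2 after both drugs. Their summed FPKM was 1528 to 1652, 677 to 884 and 983 to 2113, with combination replicate 3 above every OPG-Fc tumour. Without vehicle replicate 2, 8 of the 9 were called lower with palbociclib than with OPG-Fc, and with 11 libraries 1 of the 9, Adgre1. Fibroblast markers had medians of 131 to 190, 41.5 to 62.6 and 69.8 to 105, with summed FPKM of 1764 to 2604, 519 to 687 and 666 to 924. Epithelial markers had medians of 136 to 204, 217 to 320 and 167 to 318, with 1 of 10 called higher with palbociclib, and their sums were 2818 to 2957, 3523 to 4113 and 3360 to 4066. Adipocyte markers had medians of 20.2 to 68.6 with OPG-Fc, 1.25 to 2.51 with palbociclib and 3.03 to 21.8 with both, and 4 of 5 were called lower with palbociclib without vehicle replicate 2 and 0 with 11 libraries. Endothelial markers had medians of 10.8 to 14.5, 5.66 to 8.18 and 7.80 to 8.10, with 6 of 7 called lower and 3 with 11 libraries. Neutrophil markers had medians of 18.6 to 29.7 with OPG-Fc and 8.97 to 12.6 with palbociclib, with overlapping sums. Skin keratinocyte medians were 0.255 to 1.37 and 0.59 to 142, and those of plasmacytoid dendritic cell markers 0.83 to 5.21 and 1.8 to 3.12. Between palbociclib and OPG-Fc, most members thus lay higher with palbociclib, as did epithelial transcripts. Macrophage, fibroblast, adipocyte, endothelial and, by their median, neutrophil ones lay lower. Ifi27l2a, Tlr7, Tlr8, Slfn5 and Ifi30 also lay lower. In the combination tumours the order depended on the summary. Epithelial medians on the log2 scale were 7.22, 7.52 and 8.15, and member medians 4.70, 4.73 and 4.49. Summed FPKM rose in the same order for both, at 3360, 3670 and 4066 for epithelial markers and 1636, 1711 and 2058 for the members. In bulk tissue a larger number of cells of a type and more RNA per cell cannot be told apart, and the part of tissue content in these differences was not tested. Without the skin-containing palbociclib replicates 1 and 3, which leaves 1 palbociclib tumour, the member median against OPG-Fc was 0.53, and no member and no gene was called (0%).

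**Figure D5:**
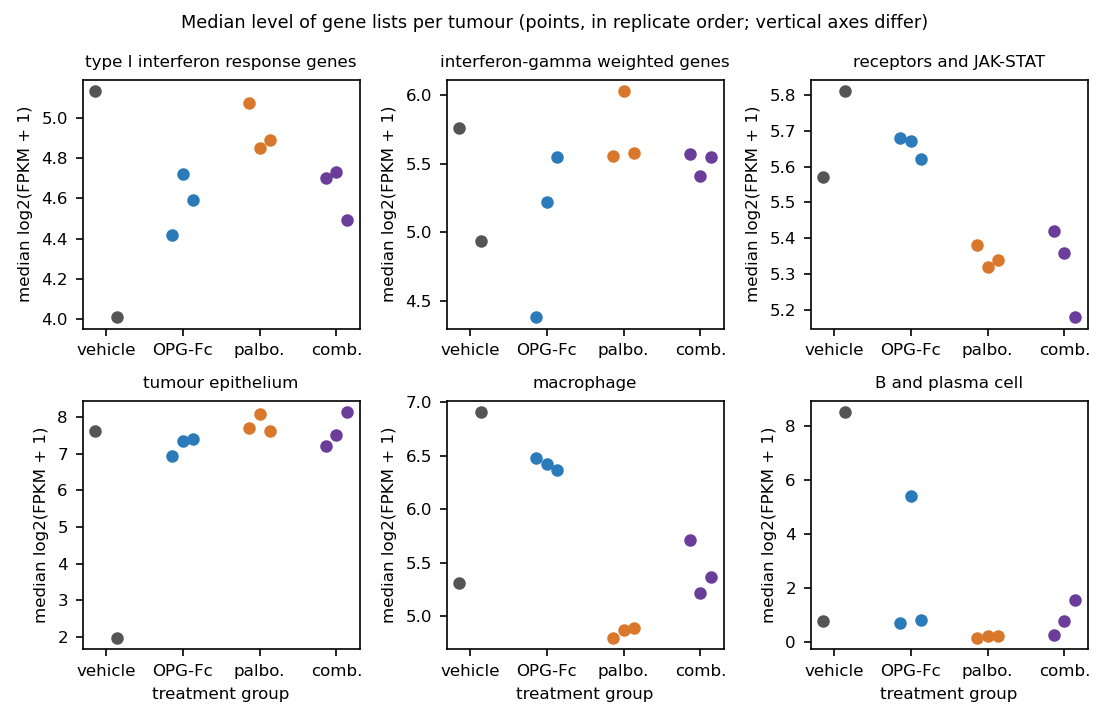
Median log2(FPKM + 1) of 6 gene lists per tumour (points, in replicate order), each with its own vertical axis. The members are higher with palbociclib than with OPG-Fc in all 3 tumours, macrophage markers run the other way, and vehicle replicate 2 stands apart in epithelial and in B and plasma cell markers.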

How the data were processed

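The authors deposited FPKM values per gene symbol and library in 1 table, per the file headers; HISAT, Bowtie2 and RSEM and the builds GRCm39 and mm39 are named in the submitters' processing notes without roles or versions. Depth is unknown, so no interval for counting error is given. Values were taken as log2(FPKM + 1), so fold changes of low genes are understated, and the filter kept 13074 genes that reached an FPKM of 1 in 2 or more libraries. Group means over all 11 libraries were fitted in R 4.3.3 with limma 3.58.1 (trend in the variance prior), for 9 comparisons, with Benjamini-Hochberg adjustment over all genes and a threshold of 0.05. Errors of fold changes are standard errors. The members and gene lists were chosen with earlier results of these data known, and so was the choice to print the fit without vehicle replicate 2. Outside the members, genes are named where they define a pathway step, were called, or had one of the 4 smallest p of a list. The alternatives were pseudocount 0.1, no filter or a filter at 5, scaling, prior, library weights, the choice of libraries, a block for the replicate number, and leaving out single libraries; 4 more were added after seeing the data, among them a correction for transcript length (natural spline, 5 degrees of freedom). Figures were drawn with matplotlib 3.10.9. A gene of the pathway is not reported here.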

Additional observations from a re-analysis of the deposited data

How the results depend on the processing

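The member median for palbociclib against OPG-Fc was 0.42 to 0.62 in all 34 settings, and for the combination against OPG-Fc 0.20 to 0.39. Settings that left out only libraries of other groups, or changed only the prior, could not move these medians. Double omissions repeated the median of a single omission, so the distinct settings were fewer. Counts of called members varied with the libraries fitted and their weights. For palbociclib against OPG-Fc the count was 0 with 11 libraries (0.91% of all genes called), 22 with library weights (20.3%), 9 with only the 2 groups fitted (10.8%), 14 without the libraries with lymphoid transcripts (7.46%), 15 with length correction and 1 vehicle library (11.3%), and 0 to 15 with 1 library, or vehicle replicate 2 and another, left out (0% to 13.2%). For the combination against OPG-Fc it was 12 with library weights (26.7%), 1 without the lymphoid libraries (0.887%), 1 with length correction and 1 vehicle (3.21%), and 0 to 1 with single libraries left out (0% to 4.77%); for the combination against palbociclib it was 2 with library weights (5.13%), with a median of -0.35 to -0.18 over left-out libraries. For palbociclib averaged it was 1 with a filter at 5 (3.68%) and 1 without the lymphoid libraries (1.48%), and for OPG-Fc averaged 2 without the latter (1.65%) and, with length correction and 1 vehicle, 7 (4.03%). Averaging the libraries that share a first number in the column names, an alternative added after seeing the data, called 0 members and 0 genes in every comparison, with a median of 0.56 for palbociclib against OPG-Fc and 0.31 for the combination against OPG-Fc.

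Without the lymphoid libraries the medians for palbociclib, OPG-Fc and the combination against vehicle, each drug averaged and the interaction were -0.06, -0.66, -0.38, 0.08, -0.48 and 0.37, and with length correction and 1 vehicle -0.05, -0.57, -0.33, 0.12, -0.44 and 0.26. With single libraries left out these medians ranged from -0.06 to 0.89, -0.57 to 0.35, -0.38 to 0.60, 0.05 to 0.58, -0.41 to 0.06 and -0.71 to 0.26, and the counts from 0 to 25, 12, 16, 24, 7 and 15, each highest without vehicle replicate 1, where 52%, 40.3%, 50.8%, 53%, 30.7% and 36.7% of all genes were called. The cause was not tested. Single members near 0 for palbociclib against OPG-Fc changed sign: Eif2ak2 (-0.33 without the skin libraries; -0.09 to 0.28 with libraries left out), Parp14 (0.00 with either length correction; -0.36 to 0.07), Stat2 (-0.02 to 0.32), Lgals3bp (-0.03 to 0.23), Oas2 (-0.03 to 0.36) and Trim30a (-0.02 to 0.09). For OPG-Fc against vehicle Ifi44 ranged from -1.27 to 0.55, and averaged over palbociclib Ifi44 from -0.82 to 0.09 and Ddx60 from -0.82 to 0.13.

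Whether replicate numbers pair the samples could not be decided. The deviations from group means in 15 pairs of same-numbered libraries had correlations of -0.41 to 0.53, with 5 above 0.1. Groups this small tie the deviations together, and no pairs of unlike number were set beside them. With the number as a block 0 members were called in every comparison, and the median for palbociclib against OPG-Fc was 0.51. No scaling moved the median of all genes by 0.1. Unknown depth leaves genes near the filter, such as Rsad2 and Ifit3b, less certain than their errors state.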
